A study of Mus musculus with 15 samples.

Results

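The genes of potassium, sodium and calcium channels of the cell membrane were followed in mouse medulloblastomas, tumours of the cerebellum, and in normal cerebella. The members were chosen by name alone: every gene on the array whose symbol begins with Kcn, is Scn with a number and a or b, or begins with Cacna1, Cacna2d, Cacnb or Cacng. There were 116 of them among 17178 gene symbols on the array, and 93 had enough signal to be tested. One member, Kcnq1ot1, is a non-coding RNA and no channel.

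Voltage-gated sodium channels carry the rising phase of the action potential, potassium channels end it and hold the resting potential, and calcium channels turn it into calcium entry at synapses and dendrites. A channel is built of a pore (the alpha subunits) with auxiliary subunits that set its gating and its place in the membrane. In the cerebellum, Purkinje cells, granule neurons and interneurons each fire through their own set of these channels, Bergmann glia and astrocytes take up potassium through inward rectifiers, and dividing granule neuron precursors, from which tumours of this model arise, have not yet built up the channels of a firing neuron.

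RNA of 15 mice was measured, with 1 one-colour Agilent array per mouse. The 12 tumours came from Ptch1+/- mice of C3B6F1 background, which carry 1 functional copy of the receptor that restrains hedgehog signalling; the labels give neither strain nor genotype for the mice of the 3 normal cerebella (N1 to N3). Tumours labelled S-type came from mice that received 0 Gy (MB1 to MB3) or 0.2 Gy (MB4 to MB6) of X-irradiation, and those labelled R-type from mice that received 0.2 Gy (MB7 to MB9) or 1.5 Gy (MB10 to MB12), in each case 3 mice; the labels do not say what S and R stand for. X-rays were given on postnatal day 1, and mice with tumours were killed when moribund. MB6 was the 1 male with a tumour. The normal cerebella are listed with a dose of 0 Gy. Ages (no unit given) were 128 to 173 for S-type, 87 to 127 for R-type and 103 to 113 for normal cerebella. Type, dose and age therefore cannot be told apart. Both types were measured at 0.2 Gy, but there the S-type ages were 128 to 135 and the R-type ages 106 to 127. In bulk tissue, fewer cells of a type and less RNA per cell cannot be told apart either.

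Signals were taken on the log2 scale after dividing each array by its 75th percentile, and a value belongs to 1 probe and is set only against the same probe on other arrays. Between 59.1 and 66.4% of probes were well above background on an array. MB2 stood apart among the tumours in mature granule neuron and choroid plexus markers, as given beside the results below. The labelled tissues matched most of their markers: the tumours exceeded normal cerebella for all 10 listed genes of dividing cells (for example Tpx2 by 6.58 on the log2 scale). Of 10 genes of granule cell progenitors 7 were higher (for example Mycn by 6.30), 1 was lower and 2 did not pass, the lowest change being −1.86. "Passed" means an adjusted p below 0.05 in limma over all 21661 tested genes of the array.

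Between the 12 tumours and the 3 normal cerebella, 55 of the 93 tested channel genes were lower in the tumours, 18 were higher and 20 did not pass. Over all tested genes, 35.4% were lower and 43.5% higher, against 59.1% and 19.4% of the channel genes. The median change of the tested channel genes was −1.65 on the log2 scale and that of all tested genes 0.14, or −1.63 and 0.08 with each gene that lay below background in a whole group at its bound, the smallest difference its signals allow. With such genes at their bound, 51 of the 93 tested members passed and were lower by at least 2-fold (54.8%, against 20.4% of all tested genes), 24 by at least 16-fold (25.8% against 2.81%), and 9 were higher by at least 2-fold (9.68% against 22.0%). For 50 lower members no tumour reached a normal cerebellum, or 53.8% against 29.2% of all tested genes, and 12 higher members did not overlap, or 12.9% against 36.3%. Filtering on signal shaped these counts: 11 tested members had signal in tumours only, 4 in normal cerebella only, and 6 more in 1 or 2 tumours beside at least 1 normal cerebellum. Of these 6, Kcna3 (adjusted p 0.0835) and Kcnf1 (adjusted p 0.235) did not pass and entered no count by fold. The others, among them Kcna2 (log2 change −4.57) and Cacnb2 (−5.23), entered the counts by fold with their fitted change, not a bound. For them the fold is not exact.

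**Figure D1:**
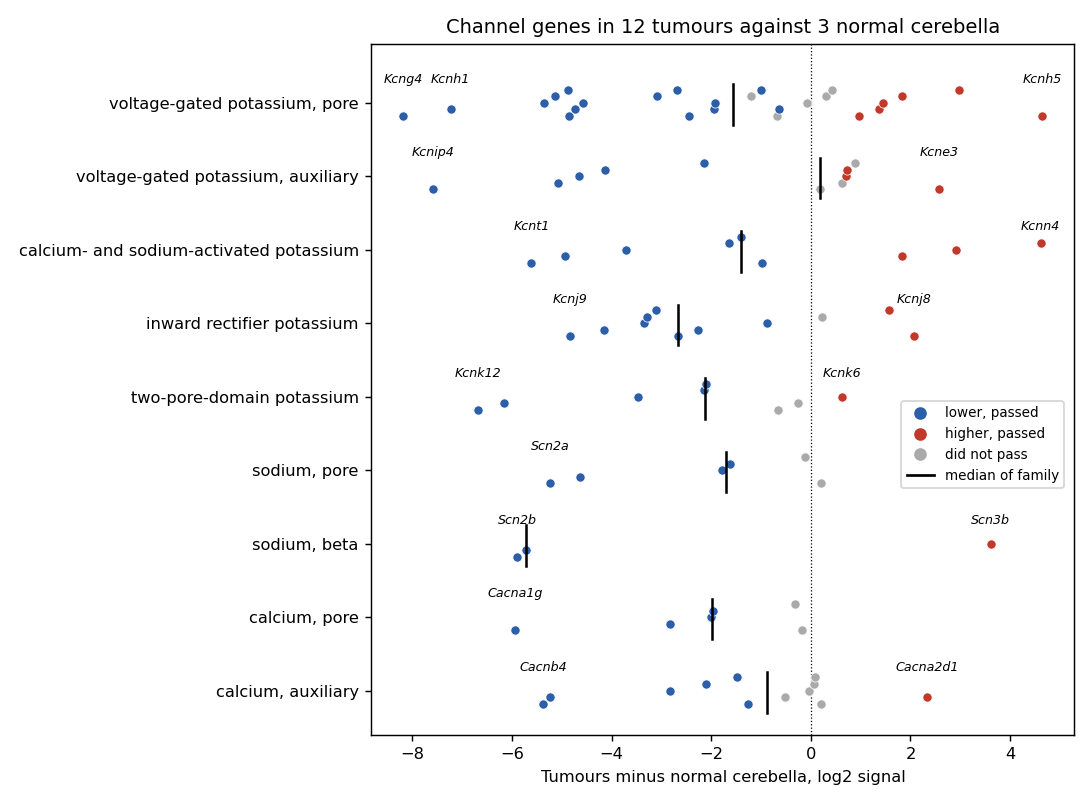
Each point is 1 tested channel gene, placed by its mean log2 signal in 12 tumours minus that in 3 normal cerebella and coloured by whether it passed; black lines mark the family medians. Points reach from −8.18 (Kcng4) to 4.65 (Kcnh5), fitted differences that are not exact for genes below background in a whole group, and the 55 that were lower and passed lie left of 0; the non-coding Kcnq1ot1 is not drawn.

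Of 26 tested pore subunits of voltage-gated potassium channels, 15 were lower in tumours and 6 higher. Kcng4, a silent subunit that modifies delayed rectifiers, had signal in normal cerebella only. Its probe read 0.98, 1.16 and 0.84 in the normal cerebella and −7.78 to −5.75 (median −7.36) in the tumours, where it was above background on no array. The groups lay far apart, and the level in tumours is only a bound: Kcng4 was at least 81.8-fold lower (adjusted p 5.46e-10). Kcnh1, a pore of the ether-à-go-go family, read 0.68, 0.64 and 0.88 in normal cerebella and −7.64 to −4.10 (median −6.70) in tumours, above background only in MB2 (log2 change −7.23, SE 0.56, adjusted p 1.2e-07).

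Its close relative Kcnh5 went the other way. Kcnh5 read −7.81, −6.08 and −6.75 in the normal cerebella, below background on each, and −2.78 to −1.88 (median −2.23) in the tumours, all of them well above background. No tumour overlapped a normal cerebellum, and the 12 tumours lay within a narrow band. The difference was at least 9.87-fold (adjusted p 6.31e-09). Kcnb2, a delayed rectifier, was also higher in every tumour, with a tumour median of −3.52 against −5.47, −5.11 and −5.54 (log2 change 1.83, SE 0.12, adjusted p 2.57e-08). Kcnq1 was higher as well (log2 change 0.97, SE 0.264, adjusted p 0.00474). The other higher pore genes were below background in all normal cerebella and have only bounds: Kcna5 at least 1.42-fold, Kcnh6 at least 1.12-fold and Kcnh8 at least 2.45-fold. Kcnh8 differed among tumours, with 8 of 12 above background. Kcna5 was above background in 10 tumours and Kcnh6 in only 3. The tumour means behind these bounds include the tumours below background, so the bounds are not exact.

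The pores of fast axonal and dendritic potassium currents were lower. Kcna1, the axonal low-threshold channel whose mutation causes episodic ataxia, read 6.33, 6.27 and 6.41 in normal cerebella and −1.60 to 3.23 (median 1.00) in tumours, highest in MB2 and lowest in MB11 (log2 change −5.35, SE 0.631, adjusted p 6.06e-06). Its partner Kcna2 read −1.94, −1.97 and −1.95 in normal cerebella and −7.26 to −5.25 in tumours, with 1 tumour above background and MB2 the highest (log2 change −4.57, SE 0.319, adjusted p 4.66e-08). Kcnc1 forms delayed rectifiers that let neurons fire at high rates. Kcnc1 fell from 3.65, 3.55 and 3.52 to a tumour range of −1.69 to −0.52 (log2 change −4.74, SE 0.199, adjusted p 5.03e-10), with every tumour far below every normal cerebellum. Kcnd2, the pore of the A-type current of granule neurons, read 4.80, 4.82 and 5.05 in normal cerebella and −2.17 to 1.69 (median −0.12) in tumours, a wide spread that still left a gap to the normal cerebella (log2 change −4.88, SE 0.614, adjusted p 1.1e-05). Kcnd3, of the same family, changed less (log2 change −1.01, SE 0.201, adjusted p 0.000558). Kcnq3, a pore of the M-current, was above background on no array.

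The stretches of DNA just before the starts of the 2 genes with the largest fitted rise and the 2 with the largest fitted fall in this comparison, among passing members with 1 start in the RefSeq promoter table, show how unlike the promoters of these genes are in base composition. Each is 250 bases long, ends at the base before the annotated start, comes from RefSeq on build GRCm38.p6 and is printed 5′ to 3′ on the strand of the gene. Capitals mark matches on either strand to any of 4 motifs. The E-box that neuronal bHLH factors bind was searched as CAGCTG. The GC box bound by Sp factors was searched as GGGCGG. The TATA box near which transcription can be positioned was searched as TATAAA. The core bound by GLI factors, the transcription factors at the end of the hedgehog pathway, was searched as GGGTGGTC.
Kcnh5 (higher), chr12:75177333-75177582, minus strand: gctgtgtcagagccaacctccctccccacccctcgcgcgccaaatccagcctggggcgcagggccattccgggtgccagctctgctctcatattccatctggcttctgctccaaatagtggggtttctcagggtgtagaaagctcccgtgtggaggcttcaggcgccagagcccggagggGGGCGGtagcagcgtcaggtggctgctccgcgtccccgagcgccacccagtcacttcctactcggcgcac
Kcnn4 (higher), chr7:24370013-24370262, plus strand: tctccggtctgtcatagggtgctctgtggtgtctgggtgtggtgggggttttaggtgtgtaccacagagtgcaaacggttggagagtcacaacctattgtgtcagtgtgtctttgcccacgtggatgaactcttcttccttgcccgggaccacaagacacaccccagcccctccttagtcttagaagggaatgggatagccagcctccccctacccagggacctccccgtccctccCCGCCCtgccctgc
Kcng4 (lower), chr8:119635681-119635930, minus strand: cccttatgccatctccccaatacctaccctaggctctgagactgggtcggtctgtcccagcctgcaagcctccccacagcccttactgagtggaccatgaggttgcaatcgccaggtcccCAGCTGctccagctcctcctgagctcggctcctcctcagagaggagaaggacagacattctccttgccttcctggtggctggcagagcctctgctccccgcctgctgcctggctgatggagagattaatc
Kcnh1 (lower), chr1:192190527-192190776, plus strand: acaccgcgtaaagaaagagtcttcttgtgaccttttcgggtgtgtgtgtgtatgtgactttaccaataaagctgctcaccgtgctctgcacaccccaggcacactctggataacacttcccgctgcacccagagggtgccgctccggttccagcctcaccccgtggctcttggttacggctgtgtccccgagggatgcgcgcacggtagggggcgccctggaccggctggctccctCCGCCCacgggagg

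The Kcnh5, Kcnn4 and Kcnh1 windows each held 1 GC box, and the Kcng4 window held 1 E-box instead. CG dinucleotides numbered 16 for Kcnh5 and 17 for Kcnh1, but 6 for Kcnn4 and 4 for Kcng4, so that each direction had a CG-rich and a CG-poor window. The table matched 86 of the 116 channel genes by symbol, with 120 starts. An E-box lay in 25.8% of these windows against 13.0% of the windows of all 32841 starts in the table, a GC box in 44.2% against 32.7%, a TATA box in 3.33% against 12.4% and the GLI core in 1.67% against 0.703%. Among channel genes lower in tumours 29.7% of 64 windows held an E-box, and among those higher 13.3% of 15 windows did. These are counts of letters in a fixed window, and no test was made of them.

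Of 11 tested auxiliary subunits of voltage-gated potassium channels, 5 were lower in tumours and 3 higher. Kcnip4, a calcium-binding subunit of A-type channels, read 3.55, 3.45 and 3.50 in normal cerebella and −5.96 to −1.64 (median −4.08) in tumours, highest in MB2 (log2 change −7.59, SE 0.447, adjusted p 9.76e-09). Kcnip1, of the same family, was lower by less (log2 change −4.14, SE 0.307, adjusted p 7.96e-08). Kcnab1, the beta subunit that attaches to axonal Kcna channels, read 3.60, 3.51 and 3.60 in normal cerebella and −2.36 to −0.40 in tumours (log2 change −5.07, SE 0.294, adjusted p 8.52e-09). For Kcnip3, which also serves as a calcium-regulated transcriptional repressor, 2 probes disagreed: the brighter was higher in tumours (0.72, adjusted p 0.000166) and the other lower (−0.93, adjusted p 6.59e-05), so that no direction holds for the gene in this comparison. Kcne3 was above background in 8 of the 12 tumours and in no normal cerebellum, at least 1.67-fold higher (adjusted p 0.0165). The remaining higher one, Kcne1, was above background in the 6 R-type tumours alone. Its call against normal cerebella (adjusted p 0.0372) was lost with the slide as a block (0.0567), with no scaling (0.11), with no filter (0.0537) and without any 1 of 8 arrays, N1, N2, N3, MB1, MB2, MB5, MB8 or MB9.

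The family of calcium- and sodium-activated potassium channels was taken by name (Kcnm, Kcnn, Kcnt and Kcnu), not by what opens each channel. All 9 tested genes of it passed, 6 lower and 3 higher. Kcnma1, the pore of the large-conductance BK channel, read 0.65, 0.58 and 0.50 in normal cerebella and −5.64 to −2.42 (median −4.52) in tumours (log2 change −4.94, SE 0.327, adjusted p 2.84e-08). The small-conductance channel Kcnn2, which paces Purkinje cell firing, read 2.50, 2.38 and 2.65 in normal cerebella and −2.07 to −0.33 in tumours (log2 change −3.72, SE 0.251, adjusted p 3.4e-08). The sodium-activated Kcnt1 read 4.46, 4.25 and 4.51 against −2.05 to 1.13 (log2 change −5.61, SE 0.46, adjusted p 2.06e-07); only MB2 lay above 0 among the tumours.

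Kcnn4, the intermediate-conductance channel best known from red blood cells, lymphocytes and microglia, was the highest of this family. It read −7.55, −7.61 and −7.03 in the normal cerebella, below background on each, and −4.54 to −1.39 (median −2.65) in the tumours, all above background. The bound on its difference was at least 6.74-fold (adjusted p 3.89e-09). Of 10 microglia and macrophage markers 8 were higher in tumours, 1 was lower and 1 did not pass. The mean over the list was 0.41 to 1.38 in tumours and at most −0.60 in normal cerebella. Each marker was above background in every tumour, and the part of these cells in the Kcnn4 difference was not tested. Kcnt2 and Kcnu1, the latter known from sperm, were the other higher genes, Kcnt2 at least 1.92-fold and Kcnu1 with a log2 change of 1.83 (SE 0.235, adjusted p 1.31e-05).

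**Figure D2:**
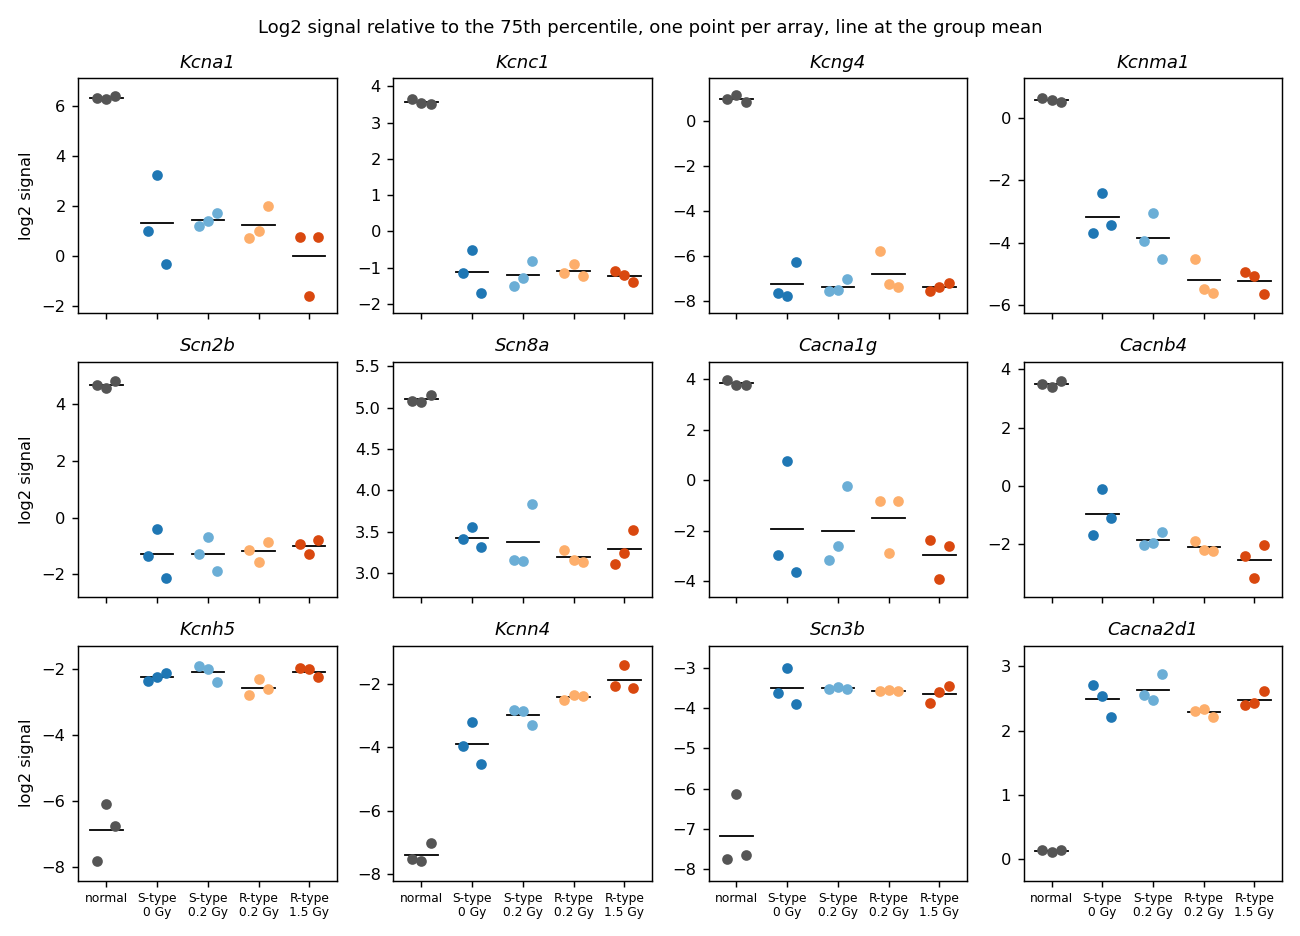
Log2 signal of 12 channel genes on each array, in panels with their own vertical scale, with 1 point per array and a line at each group mean of 3 arrays. Kcna1, Kcnc1, Kcng4, Kcnma1, Scn2b, Scn8a, Cacna1g and Cacnb4 were lower in every tumour than in every normal cerebellum, and Kcnh5, Kcnn4, Scn3b and Cacna2d1 higher; Kcng4 in tumours and Kcnh5, Kcnn4 and Scn3b in normal cerebella lay below background.

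Among 11 tested inward rectifiers, 8 were lower in tumours and 2 higher. Kcnj10, the potassium uptake channel of astrocytes, Bergmann glia and oligodendrocytes, read 4.16, 4.59 and 4.14 in normal cerebella and −0.30 to 2.43 (median 0.81) in tumours (log2 change −3.34, SE 0.377, adjusted p 4.05e-06). Markers of astrocytes and Bergmann glia were lower for 9 of 10 genes, with list means of 2.67 to 2.86 in normal cerebella and −1.27 to 0.66 in tumours, and those of oligodendrocytes for 8 of 9 genes; their part was not tested. Kcnj9, which opens on G-protein signalling in neurons, read 2.45, 2.31 and 2.49 against −3.41 to −1.03 (log2 change −4.83, SE 0.237, adjusted p 2e-09), and Kcnj12, a strong rectifier, was lower as well (log2 change −4.16, SE 0.266, adjusted p 2.05e-08). Kcnj6, a partner of Kcnj9, did not pass (log2 change 0.23, SE 0.178, adjusted p 0.258).

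Kcnj8, the pore of the ATP-sensitive channel of pericytes and vascular smooth muscle, was higher. It read −0.23, −0.21 and −0.27 in normal cerebella and 0.77 (MB2) to 2.46 (MB5) in tumours, with no overlap (log2 change 2.07, SE 0.304, adjusted p 4.26e-05). Abcc9, the regulatory subunit of the same channel and a pericyte marker, was higher too (log2 change 2.60, adjusted p 1.39e-05). Of the 10 endothelial and pericyte markers 5 were higher and 2 lower, and Flt1, an endothelial receptor, was among the lower ones (log2 change −1.83). List means were −1.13 to 0.20 in tumours and −0.83 to −0.65 in normal cerebella, and the part of vessel cells in the Kcnj8 difference was not tested.

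Of 8 tested K2P genes, the tandem-pore channels of the background leak, 5 were lower and 1 higher. Kcnk12 read 0.89, 0.91 and 0.91 in normal cerebella and −7.42 to −2.63 (median −5.55) in tumours, only 4 of which were above background (log2 change −6.68, SE 0.676, adjusted p 1.5e-06). Kcnk3, the acid-sensitive leak channel, read 2.14, 2.06 and 2.21 against −5.41 to −1.39 (log2 change −6.17, SE 0.478, adjusted p 1.21e-07). Both were highest in MB2. Kcnk1 was lower by less (log2 change −2.10, SE 0.399, adjusted p 0.000372). Kcnk6 had overlapping groups and a log2 change of 0.62 (SE 0.196, adjusted p 0.0118), and without N1, without N2 or with no scaling between arrays (0.44, adjusted p 0.0565) it did not pass.

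Among the sodium channels, 4 of 6 tested pores were lower and none was higher. Scn2a read 4.33, 4.17 and 4.47 in normal cerebella and −1.51 to 0.74 (median −0.98) in tumours (log2 change −5.23, SE 0.3, adjusted p 7.83e-09), with MB2 alone above 0. Scn1a, the pore on which fast-firing interneurons depend, was lower by a similar amount (log2 change −4.63, SE 0.167, adjusted p 1.35e-10). Scn8a, the pore of nodes and axon initial segments, kept a bright signal: 5.08, 5.07 and 5.15 in normal cerebella and 3.11 to 3.83 in tumours (log2 change −1.78, SE 0.133, adjusted p 8.36e-08). Scn3a, which is used mostly before birth, was lower as well (log2 change −1.63, SE 0.366, adjusted p 0.00135), and the tumours reached from −4.99 to −2.05 and so overlapped the normal cerebella at −2.11, −2.06 and −1.71.

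Of 3 beta subunits on the array 2 were lower and 1 higher. Scn2b read 4.68, 4.58 and 4.84 in normal cerebella and −2.15 to −0.40 in tumours (log2 change −5.89, SE 0.314, adjusted p 4.03e-09). Scn3b, the beta subunit best known from the immature brain, read −7.74, −6.14 and −7.65 in normal cerebella, below background, and −3.91 to −3.00 (median −3.56) in tumours, all above background. It was at least 3.92-fold higher (adjusted p 1.16e-07), and the 12 tumours differed from each other with an SD of only 0.23.

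Of 6 tested calcium channel pores 4 were lower and none was higher. Cacna1g, the low-threshold T-type pore of Purkinje cells and deep nuclei, read 3.97, 3.75 and 3.75 in normal cerebella and −3.92 to 0.75 (median −2.60) in tumours (log2 change −5.93, SE 0.85, adjusted p 3.54e-05); MB2 and MB6 were the highest tumours. Cacna1a, the presynaptic P/Q-type pore that dominates in Purkinje cells, read −0.59, −0.72 and −0.58 against −4.38 to −2.68 (log2 change −2.82, SE 0.348, adjusted p 9.45e-06). Cacna1e, a pore of presynaptic and dendritic calcium currents, was above background in 1 tumour (log2 change −1.97, SE 0.419, adjusted p 0.000883), and the T-type pore Cacna1h did not pass (log2 change −0.18, SE 0.487, adjusted p 0.748).

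Among 12 auxiliary calcium channel genes 6 were lower and 1 higher. Cacnb4, the beta subunit that partners Cacna1a and whose loss makes the lethargic mouse ataxic, read 3.49, 3.39 and 3.61 in normal cerebella and −3.19 to −0.11 in tumours (log2 change −5.38, SE 0.282, adjusted p 3.46e-09). Cacnb2 was lower as well (fitted log2 change −5.23, SE 0.411, adjusted p 1.39e-07). Only 1 tumour was above background for Cacnb2, with MB2 the highest, so the size of its fall is not exact. Cacnb3 changed less (log2 change −1.26, SE 0.228, adjusted p 0.000264). Cacna2d1, the extracellular subunit to which gabapentin binds, was the higher one: 0.15, 0.11 and 0.15 in normal cerebella and 2.21 to 2.88 (median 2.45) in tumours, with no overlap (log2 change 2.34, SE 0.105, adjusted p 9.22e-10), while its relative Cacna2d2, mutated in the ataxic ducky mouse, was lower (log2 change −1.49, SE 0.11, adjusted p 7.68e-08). Cacng2, the stargazin subunit of AMPA receptors, did not pass by its chosen probe (log2 change 0.20, SE 0.184, adjusted p 0.335). The other of its 2 tested probes passed as lower in tumours. The non-coding Kcnq1ot1, which lies antisense within Kcnq1 at an imprinted locus, was higher (log2 change 1.13, SE 0.14, adjusted p 9.59e-06).

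Lower channel genes ran beside lower markers of the neurons that use them. All 10 mature granule neuron markers, all 10 Purkinje cell markers and all 8 GABAergic interneuron markers were lower in tumours, for example Snap25 by −5.73 and Slc1a6 by −6.13 on the log2 scale. The mean over the granule neuron markers was 4.16 to 4.37 in normal cerebella and −2.77 to 0.79 in tumours, that over Purkinje markers 4.13 to 4.30 and −3.89 to −1.78, and that over interneuron markers 1.42 to 1.64 and −5.03 to −3.60. Every Purkinje and granule neuron marker was above background in some tumour, while the interneuron markers Slc6a5 and Tfap2b and the oligodendrocyte markers Mog and Opalin were so in none. The part of neuron number in the channel values was not tested.

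Within the tumours, MB2 had the highest value for 29 of the 55 lower channel genes, and MB3 and MB11 each had the lowest for 12. The median of these 55 genes relative to the normal mean was −3.00 in MB2 and reached −4.06 in MB11. MB2 also had the highest mean of mature granule neuron markers, 0.79 against −2.77 to −0.78 in the other 11 tumours, but its Purkinje marker mean, −2.12, lay inside the range of the others. Leaving out any 1 array, MB2 included, gave 54 to 56 lower and 15 to 19 higher channel genes.

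**Figure D3:**
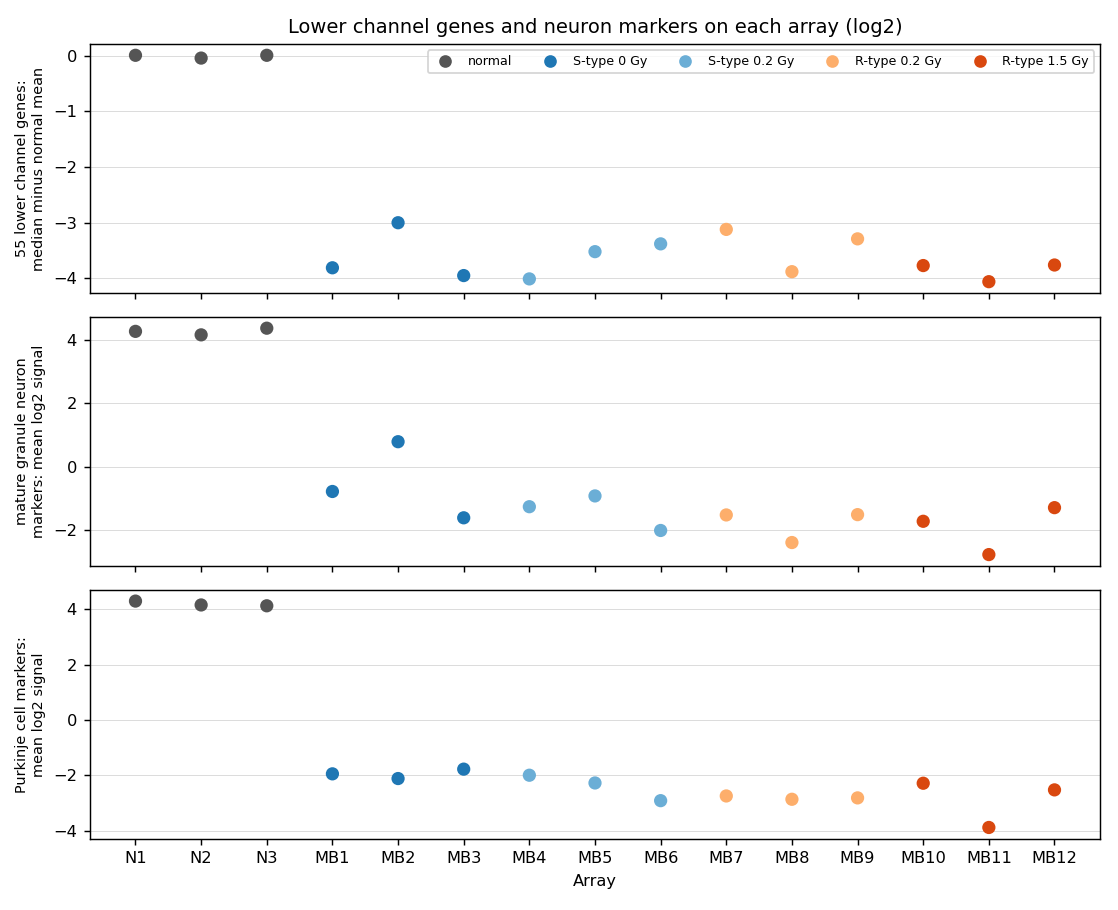
For each array, the median over the 55 lower channel genes minus their mean in normal cerebella (top) and the mean log2 signal of 10 mature granule neuron markers (middle) and 10 Purkinje cell markers (bottom), 1 point per array coloured by group. Tumours lie between −4.06 and −3.00 at the top, and MB2 is the highest tumour in the upper and middle panels only.

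Kcne2, a subunit known from choroid plexus, was above background in 5 tumours and did not pass (log2 change 0.89, adjusted p 0.334). Its highest values were −1.40 in MB2 and −3.01 in MB3, against −7.30 to −4.69 in the other tumours. The same pair had the highest means of 6 choroid plexus markers, −0.60 and −2.30 against −4.38 to −3.19; of these markers Aqp1, below background in normal cerebella, was at least 29.3-fold higher in tumours and Clic6 lower (−2.13), and 4 did not pass.

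Genes that place, anchor or oppose the channels were described from a list of 51 partners, 46 of them on the array. Of 44 tested partner genes 32 were lower in tumours and 7 higher, with a median change of −2.19. All 8 tested genes of calcium stores and pumps were lower, among them the store release channel Itpr3 (log2 change −2.95) and the reticulum pump Atp2a2 (−3.31). At the axon initial segment and node 6 of 8 were lower, led by the scaffold Sptbn4 (−2.81) and by Cntnap2, which anchors Kcna1 and Kcna2 (−3.89). Of proteins bound to potassium channels 5 of 6 were lower, including the Kcnd partner Dpp10 (−6.60) and the secreted Lgi3 (−4.80), and of the intracellular FGFs that bind sodium channel tails 3 of 4, with Fgf12 at −4.15 and Fgf14 at −2.18. The sodium-potassium pump had 4 of 5 genes lower (Atp1b2 at −3.45) and 1 higher. Other cation channels had 5 of 6 lower and 1 higher, the pacemaker channels Hcn2 (−2.20) and Hcn3 (1.06) going opposite ways.

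Partners that inhibit the channels or silence neuronal genes included both directions. Among the RGK proteins, small GTP-binding proteins that inhibit calcium channels through their beta subunits, Rrad (log2 change 1.98) and Gem (above background in 4 tumours only, with no fold given) were higher and Rem2 lower (−2.43); Rem1 was above background on no array. Of the REST complex, which silences neuronal genes outside neurons, Hdac2 (2.02), Rcor1 (1.12) and Sin3a (1.19) were higher, and Rest itself read −2.21 ± 0.46 (SD, n = 12) in tumours and −2.21 ± 0.11 (SD, n = 3) in normal cerebella (adjusted p 0.993).

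The comparison of 6 R-type with 6 S-type tumours asked which channel genes part the types. Of the 93 tested, 7 were higher in R-type and 10 lower, or 7.53% and 10.8%, against 11.1% higher and 10.0% lower among all tested genes. The median change was 0.02 for channel genes and 0.02 for all. The split depends on the scaling: with no scaling between arrays 5 were higher and 18 lower, and the median of all genes moved from 0.022 to −0.199. Without MB9 or without MB11 6 were lower. With the slide as a block 8 were higher and 10 lower.

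Kcne1, a single-span subunit that slows Kcnq1 channels, was above background in R-type tumours only. In R-type tumours it read −5.11, −4.33 and −4.52 at 0.2 Gy and −3.09, −4.80 and −4.31 at 1.5 Gy, above background on each. In S-type tumours it read −5.96, −6.11 and −6.58 at 0 Gy and −6.32, −5.93 and −6.25 at 0.2 Gy, and in normal cerebella −5.92, −6.15 and −5.88, above background on none. R-type exceeded S-type by at least 2.08-fold (adjusted p 0.000842), and the gene was tested only because of its signal in R-type tumours. The arrays lay on 4 slides that each held both types, and on each slide the R-type mean was the higher. The differences within slides read 1.42 to 3.09, sizes that are not exact because S-type lay below background.

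Kcnip3 was lower in R-type. S-type tumours read −0.20, −0.19 and 0.00 at 0 Gy and −0.21, 0.02 and 0.21 at 0.2 Gy, and R-type tumours −0.79, −0.85 and −0.61 at 0.2 Gy and −0.48, −1.14 and −0.99 at 1.5 Gy. The types did not overlap (log2 change −0.75, SE 0.111, adjusted p 0.00114), and here both probes were lower. Within slides the R-type mean was lower by 0.50 to 1.00 on the 4 slides, so that no slide went the other way.

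Kcnma1 was lower in R-type as well, at −5.64 to −4.53 (median −5.28), with 3 of 6 above background, against −4.51 to −2.42 (median −3.57) in S-type. MB6 and MB7, the neighbours across the types, were close at −4.51 and −4.53 (log2 change −1.70, SE 0.292, adjusted p 0.0025). Kcnn4 ran the opposite way, at −2.48 to −1.39 in R-type and −4.54 to −2.81 in S-type (log2 change 1.31, SE 0.219, adjusted p 0.00216). Its group means were −3.89 ± 0.69 at 0 Gy and −2.98 ± 0.27 at 0.2 Gy in S-type, and −2.40 ± 0.07 at 0.2 Gy and −1.86 ± 0.41 at 1.5 Gy in R-type (SD, n = 3 each), and no neighbouring pair of these means passed the test. Of the microglia markers 2 of 10, Cx3cr1 and P2ry12, were lower in R-type (log2 change −0.45 and −0.62) and none was higher.

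Other subunits had larger p-values or smaller differences. Kcnip4 was lower in R-type (log2 change −1.64, SE 0.4, adjusted p 0.0146), above background in 4 of 6 against 6 of 6 tumours and by 1 of its 2 probes, as were Kcnj9 (−0.91, SE 0.212, adjusted p 0.012), Scn1a (−0.76, SE 0.149, adjusted p 0.00504) and Cacnb4 (−0.92, SE 0.252, adjusted p 0.0246, and above 0.05 without MB6, MB9 or MB11, as the mean over its probes and with only the tumours fitted). The remaining lower members were Kcnk10 (−0.51), Cacna1d (−0.47), Kcnab2 (−0.37) and Kcns3, which was above background in no R-type tumour and at least 1.06-fold lower. Kcne1l, a relative of Kcne1, was higher in R-type by 0.54 (SE 0.104, adjusted p 0.00454), with every R-type tumour above every S-type tumour. Kcnab1, Kcnd3 and Kcnh4 were higher by 0.90, 0.73 and 0.86 (adjusted p 0.0318, 0.0149 and 0.0143), with overlap between types, and Kcnab1 by 1 of its 2 probes; without scaling Kcnd3 did not pass. The chosen probe of Cacna2d2 had a log2 change of 0.53 (adjusted p 0.00335) and another probe one of −0.76 (adjusted p 0.0294), so that no direction holds for that gene between the types. Among neuron markers 1 of 10 mature granule neuron genes was higher and 1 lower in R-type, 1 of 10 Purkinje genes was lower, and 1 of 8 interneuron genes was higher and 1 lower. The median change was −1.04 over the granule neuron markers, −0.52 over the Purkinje markers and −0.07 over the interneuron markers. At 0.2 Gy alone these medians were −0.28, −0.21 and −0.21. The part of neuron number in the channel values was not tested. Of the 44 partner genes 3 were higher and 6 lower, the largest being the calcium pump Atp2b2 (log2 change −1.60, adjusted p 1.5e-05).

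**Figure D4:**
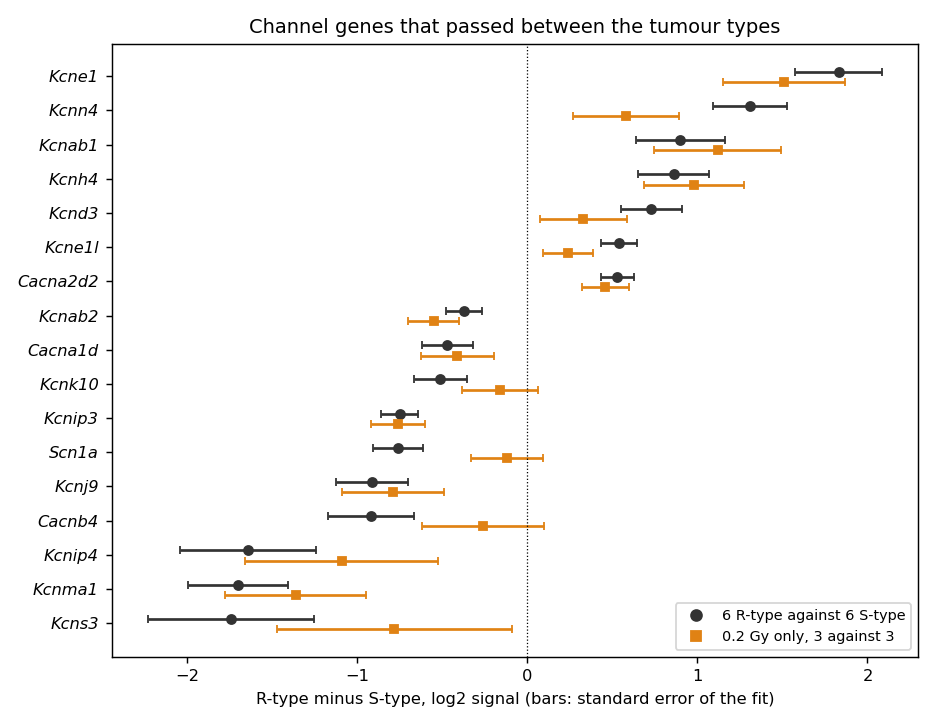
Difference in mean log2 signal between R-type and S-type tumours for the 17 channel genes that passed (circles, 6 against 6) and for the same genes at 0.2 Gy alone (squares, 3 against 3), with bars of 1 standard error of the fit. Kcne1 is at the top at 1.83 and 1.51, not exact since S-type lay below background, as R-type did for Kcns3; at 0.2 Gy alone only Kcne1 and Kcnip3 passed.

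At the matched dose of 0.2 Gy, 3 R-type against 3 S-type tumours, 1 member was higher and 1 lower, against 1.98% higher and 2.78% lower among all tested genes. The ages of the types did not overlap at this dose, so type and age cannot be told apart here. Kcne1 was higher by at least 1.68-fold (adjusted p 0.0373) and Kcnip3 lower (log2 change −0.76, SE 0.158, adjusted p 0.0229), and these 6 tumours also enter the comparison over both doses. Kcne1 was tested only because of its signal in R-type tumours, and with no filter on dim probes it did not pass (adjusted p 0.064). Leaving out any 1 of the 6 arrays, or of the 3 normal cerebella, also took Kcne1 above 0.05. Leaving out any of the 6 but MB4 did so for Kcnip3, which also did not pass with the slide as a block (−0.68, adjusted p 0.0582). Kcnma1 differed at this dose by −1.36 (SE 0.414, adjusted p 0.0834) and Kcnn4 by 0.58 (SE 0.31, adjusted p 0.294), and neither passed. Scn1a (−0.12, SE 0.211, adjusted p 0.775), Cacnb4 (−0.26, SE 0.356, adjusted p 0.713) and Kcnk10 (−0.16, SE 0.222, adjusted p 0.709) differed less here than over both doses. Kcnj9 differed by −0.79 (SE 0.3, adjusted p 0.153). None of these passed at this dose.

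Between doses within a type no channel gene passed in limma. In S-type tumours, 0.2 Gy against 0 Gy, 10 of 93 had an unadjusted p below 0.05, against 5.75% of all tested genes. After adjustment 0.00462% of all tested genes were lower. Scn1a was the nearest, at −1.84, −1.41 and −2.11 without irradiation and −2.67, −2.61 and −3.03 with it (log2 change −0.99, SE 0.211, adjusted p 0.422). The values of the 2 doses do not overlap, but the test adjusted over all genes did not call them. In R-type tumours, 1.5 Gy against 0.2 Gy, 7 of 93 had an unadjusted p below 0.05, against 7.06% of all tested genes. After adjustment 0.00462% of all tested genes were higher and 0.0646% lower. The nearest was Kcnip1 (log2 change −1.14, SE 0.388, adjusted p 0.603). With 3 tumours a dose, the standard errors of the tested members ranged from 0.104 to 1.12 on the log2 scale.

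The 23 untested members fell into 16 with signal on no array and 7 with signal on 1 or 2. Among them were Kcnq5, Kcnn3, Kcnj5, Cacna1f, Cacna1i, Scn7a, Scn10a and Scn11a, the last 3 being sodium channels of peripheral sensory neurons and glia. Of the genes listed for description, Cacna1c, Kcnj13, Kcnk9 and Scn4b were not analysed here.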

How the data were processed

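RNA of 15 mice was hybridised to one-colour Agilent arrays, 1 per mouse. The deposited scanner files hold a processed intensity per spot that the authors obtained (the submitters' processing notes name Agilent Feature Extraction 9.5.1) by background subtraction under the protocol named in the file headers (annotation build mm9). A deposited table of log2 values tracked the scanner values (correlation of differences between arrays 0.99987 to 0.99999 over 41098 probes). Its column medians were 0.00242, 0.082 and 0.0892 for N1 to N3 and 0.0506, −0.0506, 0.106, 0.0682, −0.0795, 0.0525, 0.0703, 0.13, 0.127, 0.0908, 0.152 and 0.099 for MB1 to MB12, how it was centred is not known, and it served as an alternative.

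Of 41174 probes 24844 were named through their RefSeq accession; 76 with outlier marks were left out. Processed intensities were taken to log2, the array's 75th percentile was subtracted, spots of a probe were averaged and the probe with the highest mean stood for a gene. Genes were tested if well above background on at least 3 arrays, with 5 group means in limma 3.58.1 (R 4.3.3), lmFit and eBayes, Benjamini-Hochberg adjustment over 21661 genes and a threshold of 0.05; the method was tested on simulated data. "At least" folds set the bright group's mean against, on each array of the dim group, the higher of the probe's own value and the lowest signal well above background. The labels give separate mice but no more, so p-values measure the spread between these samples. Array number limits the precision.

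Members and lists were chosen with earlier results of these data known. Named genes are the members with the largest changes that passed and a fixed list; others were named after their values were seen, and values of some genes are not reported here, though counts include them. Alternatives were the background correction, scaling, filter, probe rule, deposited table, slide as a block, samples fitted, the test's spread estimate and leaving out each array.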

Additional observations from a re-analysis of the deposited data

Results flagged for a closer look

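For the named genes reported here, each tumour type of 6 arrays was searched for a highest or lowest array whose gap to its neighbour, as a share of the range, exceeded Dixon's critical value for 6 arrays, a limit that chance passes in about 1 of 20 groups. Of 87 groups examined 9 passed, 5 of them through MB2. In MB2, Kcnt1 read 1.13 (the other S-type tumours −2.05 to −1.08), Scn2a 0.74 (−1.21 to −0.93), Kcnip4 −1.64 (−4.01 to −3.33), Kcnab1 −0.83 (−2.36 to −1.93) and Cacnb3 −0.04 (−1.44 to −0.98), each the highest S-type value. In MB11, Kcna1 at −1.60 (0.72 to 1.98) and Scn1a at −3.67 (−2.94 to −2.84) were the lowest R-type values. Kcnd3 was low in MB3 at −5.65 (−4.50 to −3.96) and Scn3b in MB10 at −3.88 (−3.60 to −3.46). MB2 and MB11 also had the highest and the lowest mean of mature granule neuron markers among tumours, 0.79 and −2.77, whose part in these values was not tested.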

How the results depend on the processing

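Results were recomputed under 10 alternatives between tumours and normal cerebella and 11 between tumours (the added one, only the groups compared, is the same fit for tumours and normal cerebella), and without each of the 15 arrays. Of 64 results for single genes 54 kept their direction and side of the threshold throughout. Kcnip3 between tumours and normal cerebella turned to −0.11 (adjusted p 0.424) as the mean over its probes. Counts of channel genes between tumours and normal cerebella were 15 to 19 higher and 54 to 58 lower under the alternatives. With normexp background correction the median change of the tested channel genes there was −1.11 instead of −1.65, and that of all tested genes 0.158. Counts by fold were made under the main processing only. Between R-type and S-type, normexp background correction gave 16 higher (7 lower) and no scaling 18 lower (5 higher), and leaving out 1 array gave 6 (without MB3) to 10 (without MB2) higher and 6 (without MB9 or MB11) to 13 (without MB3) lower. At 0.2 Gy, the count of higher genes was 2 with normexp or with only the groups compared and 0 with no filter, and the count of lower genes was 5 with no scaling, 2 with an intensity trend and 0 with the slide as a block or only the groups compared. Leaving out 1 array gave 0 to 4 higher (4 without MB2) and 0 to 1 lower at that dose. The cause of these shifts was not tested. The counts between doses within a type were 0 in limma under each alternative. No paired analysis was possible because the labels give no replicate numbers shared between groups. Signal over background limits the genes above background in 1 group only, for which fitted differences are not exact.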
